A study of Mus musculus with 6 samples.

Results

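The miRNAs described here come from the hairpins miR-675, miR-483, miR-335, miR-296 and miR-298, which lie at the imprinted loci of H19, Igf2, Mest and Nespas. Every row of these hairpins was taken from the deposited table, on either arm, which gave 7 of 778 rows: mmu-miR-298-5p, mmu-miR-296-3p, mmu-miR-296-5p, mmu-miR-335-5p, mmu-miR-335-3p, mmu-miR-483-5p and mmu-miR-675-5p. The arms miR-675-3p, miR-483-3p and miR-298-3p were not analysed here. The cells were primary mesangial cells of the mouse, the contractile cells that support the capillaries of the glomerulus, at passages 3 to 6 in medium with 25.5 mM glucose and 20% serum. The Control group held 3 libraries of cells without added cytokine, and the TGF-b1 group held 3 libraries of cells given transforming growth factor β1, a cytokine that drives fibrosis, at 10 ng/ml for 72 h. The question was which miRNAs differ in abundance after the treatment. Neither the strain, age or number of the animals nor the number of separate cultures behind the libraries was given in the sources used here, so the spread between libraries may be technical.

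Genomic imprinting silences a gene on the chromosome inherited from a given parent, so that only the other copy is expressed. H19, a long non-coding RNA, is expressed from the maternal copy and is the precursor of miR-675. Igf2, a fetal growth factor beside it, Mest, a hydrolase-like protein, and Nespas, an antisense RNA of the Gnas locus, are expressed from the paternal copy. Many imprinted RNAs are abundant in fetal and placental tissue and fall after birth. A hairpin is cut into a duplex whose 5p and 3p arms can each be loaded into the silencing complex, and bases 2 to 8 of the loaded arm, the seed, pair with target mRNAs.

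The arms with enough reads to be tested, and miR-483-5p, the most abundant of those with too few, are printed below from RefSeq (GRCm38.p6) with the seed in capitals, since each arm has a seed of its own.
mmu-miR-298-5p: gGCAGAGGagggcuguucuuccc
mmu-miR-296-3p: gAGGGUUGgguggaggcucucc
mmu-miR-296-5p: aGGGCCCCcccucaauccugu
mmu-miR-335-5p: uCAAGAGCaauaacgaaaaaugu
mmu-miR-483-5p: aAGACGGGagaagagaagggag
All 10 mature sequences of the 5 hairpins were found in RefSeq by name. For each of them 0 other mature miRNAs of that table shared the seed, so the seeds form no family. The Nespas sequences were rich in G and C, with 68.2% in miR-296-3p, 66.7% in miR-296-5p and 65.2% in miR-298-5p, against a median of 50% over the 581 rows of the deposited table found in RefSeq and 30.4% in miR-335-5p.

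The hairpins of miR-296 and miR-298 are shown whole, with both annotated arms in capitals, because the results turn on their arms.
Mir296 hairpin: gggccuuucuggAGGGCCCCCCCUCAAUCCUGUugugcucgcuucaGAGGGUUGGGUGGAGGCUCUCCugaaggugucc
Mir298 hairpin: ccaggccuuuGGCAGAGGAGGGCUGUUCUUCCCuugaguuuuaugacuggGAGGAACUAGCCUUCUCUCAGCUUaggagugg
In GENCODE vM1 on the NCBIM37 mouse genome, the assembly to which the study mapped its RNA reads, Mir296 lies on the minus strand of chromosome 2 from 174092548 to 174092626 and Mir298 from 174093005 to 174093086, with 378 bp between them. Neither overlaps another annotated gene there. The nearest is Nespas, on the same strand from 174106738 to 174120937, whose annotated end is 13652 bp from Mir298. Mir335 lies on the plus strand of chromosome 6 from 30691299 to 30691396, in an intron of Mest. Mir675 lies on the minus strand of chromosome 7 from 149762969 to 149763052, within an exon of H19, and Mir483 from 149840829 to 149840901, in an intron of Igf2. The hairpin sequences at these positions were identical to those of RefSeq.

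Values are RPM, the reads of a miRNA scaled to 1000000 reads of the library total. The totals were between 16478281 and 20169254 reads, so that 1 read was worth 0.0496 to 0.0607 RPM and a library with a count of 0 could still hold up to 3 reads, or 0.149 to 0.182 RPM. Such limits and the counting intervals below describe counting error alone, because reads copied by PCR are not separate molecules. TGF-b1 replicate 1 was the deepest library and stood apart from TGF-b1 replicates 2 and 3, with 123.7 and 86.2 chi-square units per row (about 1 would be counting noise), against 43.1 between replicates 2 and 3 and 38.4 to 65.5 among the Control libraries. Results that rest on it are given with and without it. Markers fixed for mesenchymal and contractile cells were all present and summed to 17381 to 18864 RPM in Control and 17955 to 21743 in TGF-b1, with miR-21-5p the most abundant. Those of epithelial cells summed to 315.9 to 329.9 and 343.9 to 368.0 RPM, nearly all of it miR-192-5p. The epithelial markers did not move together. In the limma fit used below, miR-200a-3p, miR-200b-3p and miR-429-3p fell, with log2 changes of -2.64, -2.27 and -1.94. The changes of miR-192-5p, miR-194-5p and miR-215-5p were 0.23, 0.54 and 0.17. Those of skeletal and heart muscle summed to 3440 to 3646 and 3285 to 3465 RPM, nearly all of it miR-206-3p. The liver marker miR-122-5p was at 24.2 to 27.3 and 13.1 to 13.9 RPM. Markers of neurons and endocrine cells summed to 333.6 to 388.5 and 241.5 to 249.4, most of it miR-128-3p. Within this list miR-128-3p and miR-124-3p had log2 changes of -0.61 and -0.50, but miR-7a-5p and miR-9-5p of 0.83 and 0.13. Endothelial markers were at most 0.298 RPM and blood markers at most 0.659 in any library, with 4 of the 6 blood markers found in the table. The part of such cells in the results was not tested.

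The Nespas hairpins gave by far the most reads of the 4 loci. By the mean in Control, miR-298-5p ranked 73 among the 778 rows, miR-296-3p 101, miR-296-5p 213 and miR-335-5p 358, while miR-483-5p ranked 517, miR-335-3p 599 and miR-675-5p 704. In Control each miRNA down to miR-483-5p lay above the next in all 3 libraries, while miR-335-3p and miR-675-5p met at 1 read in Control replicate 3. In TGF-b1 the order of the means was the same, with no overlap between neighbours down to miR-335-5p, while miR-483-5p and miR-335-3p both ranged from 0 to 1 read and could not be ordered.

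**Figure D1:**
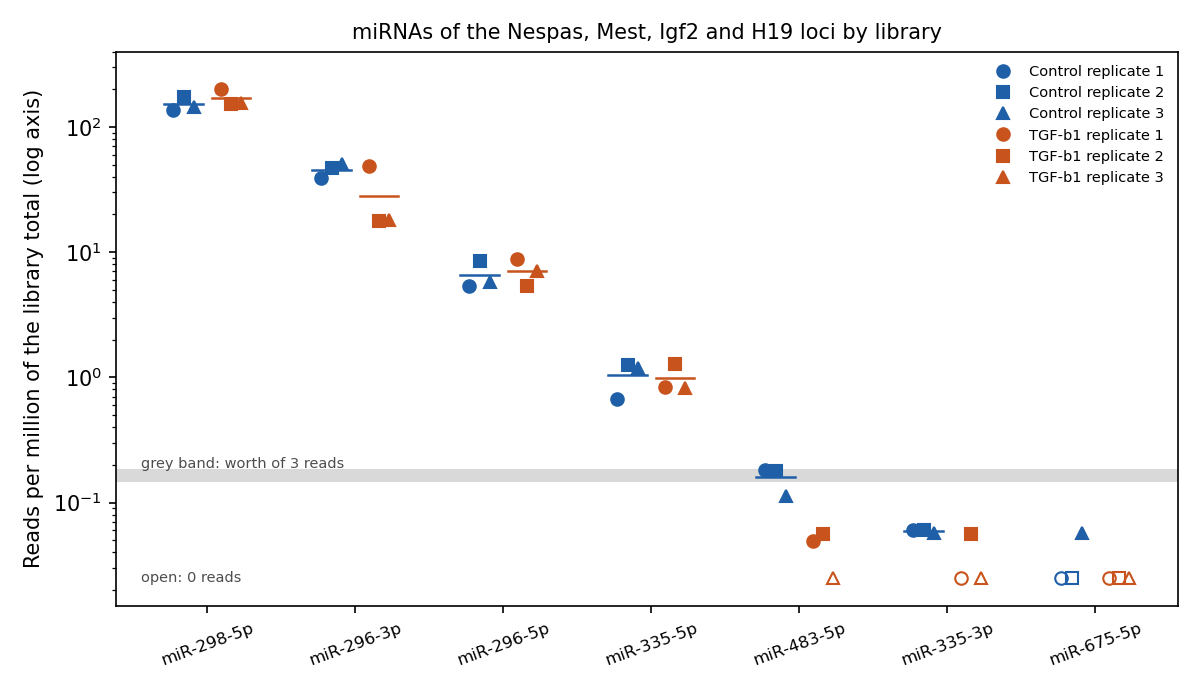
RPM of the 7 miRNAs on a log axis, for 3 Control libraries (blue) and 3 TGF-b1 libraries (orange), with lines at the group means where no library was at 0. MiR-298-5p lies between 135.6 and 201.5 RPM, the TGF-b1 libraries of miR-296-3p split into 48.3 and about 18 RPM, and the 3 miRNAs on the right lie at or below the worth of about 3 reads, with open symbols for 0 reads.

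Of these 7 miRNAs, 4 had enough reads to be tested (miR-298-5p, miR-296-3p, miR-296-5p and miR-335-5p), and none of the 4 changed by the test. A miRNA was called where limma gave an adjusted p below 0.05 and a log2 change beyond 1 in either direction. By this rule 0 of 4 were called, where 12.3% of the 408 tested miRNAs were. At any fold change 0 of 4 were called, where 49.3% of all tested were. The libraries of the groups overlapped for all 4, although 56.9% of the tested miRNAs had separate groups. At an unadjusted p under 0.05 there was 1, miR-296-3p, and edgeR with either scaling and DESeq2 called 0 of 4 at any fold change. The median log2 change of the 4 was 0.033, beside -0.17 over all 408. Rows of the table accounted for 79.5% to 79.8% of all reads of a Control library but for 71.6% to 73.1% in the TGF-b1 libraries, a difference that enters every RPM change. With scaling to the sum of the listed rows the median over all tested was -0.076, and the log2 change of miR-298-5p was 0.30 in place of 0.17.

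MiR-298-5p, which is known to repress the β-secretase Bace1 in mouse neurons, was the most abundant. It had 135.6, 172.7 and 144.9 RPM in Control and 201.5, 153.5 and 155.4 RPM in TGF-b1 replicates 1 to 3. The highest value was that of TGF-b1 replicate 1, and the other TGF-b1 libraries lay within the Control range. The means were 151.1 ± 19.3 and 170.1 ± 27.2 RPM (SD, n = 3 each). The log2 change was 0.17 ± 0.14 (SE, limma adjusted p = 0.374), with a 95% interval from -0.17 to 0.50, or from 0.890-fold to 1.42-fold. Without TGF-b1 replicate 1 it was 0.039. The call depended on the scaling: with median-of-ratios scaling, which moves the median change of all tested miRNAs from -0.17 to -0.022, the log2 change was 0.38 with a limma adjusted p of 0.0426, while with TMM it was 0.32 with 0.0915 and over all alternatives the adjusted p ranged from 0.0426 to 0.837. The chosen threshold thus lay inside the range that the scaling gave.

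Of the 4 tested miRNAs, miR-296-3p varied most among the TGF-b1 libraries. It had 38.8, 46.7 and 50.6 RPM in Control (639, 779 and 892 reads), and 48.3, 17.8 and 18.2 RPM in TGF-b1 replicates 1 to 3 (974, 318 and 311 reads). TGF-b1 replicate 1 lay within the Control range and replicates 2 and 3 lay below all Control libraries. Counting error was small beside this split. The exact Poisson 95% interval was 45.3 to 51.4 RPM in TGF-b1 replicate 1, 15.9 to 19.8 in replicate 2 and 16.2 to 20.3 in replicate 3. The highest TGF-b1 library was 2.72 times the lowest, against 1.31 times in Control. The coefficient of variation in TGF-b1 was 62.3%, where counting alone would give 4.33%.

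The means of miR-296-3p were 45.4 ± 6.03 and 28.1 ± 17.5 RPM (SD, n = 3 each). The log2 change was -0.82 ± 0.35 (SE), with a limma adjusted p of 0.089 and an unadjusted p of 0.0497. The 95% interval ran from -1.64 to -0.0012, or from 0.321-fold to 0.999-fold. The call turned on a single library. Without TGF-b1 replicate 1 the log2 change was -1.28 ± 0.16 (SE, limma adjusted p = 0.000557), past both thresholds, whereas without TGF-b1 replicate 2 or 3 it was -0.58 and -0.60 with limma adjusted p-values of 0.259 and 0.223. Nothing in the labels sets TGF-b1 replicate 1 apart from the others. Over all alternatives the adjusted p ranged from 0.000557 to 0.478.

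The split of TGF-b1 replicate 1 from the others was looked for in other miRNAs after the values of miR-296-3p had been seen. In 19 of the 408 tested miRNAs, or 4.66%, TGF-b1 replicate 1 lay within the Control range and both other TGF-b1 libraries below it. The same pattern with replicate 2 or replicate 3 as the library within the Control range was found for 6 and 16 miRNAs. Among the 173 tested miRNAs with a mean of at least 10 RPM in TGF-b1 replicates 2 and 3, the ratio of replicate 1 to that mean was highest for miR-296-3p, at 2.69, followed by miR-27b-3p at 2.21, miR-27a-3p at 2.17, miR-331-3p at 2.10 and miR-143-5p at 2.07. The median ratio was 1.01, and that of miR-298-5p was 1.30.

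**Figure D2:**
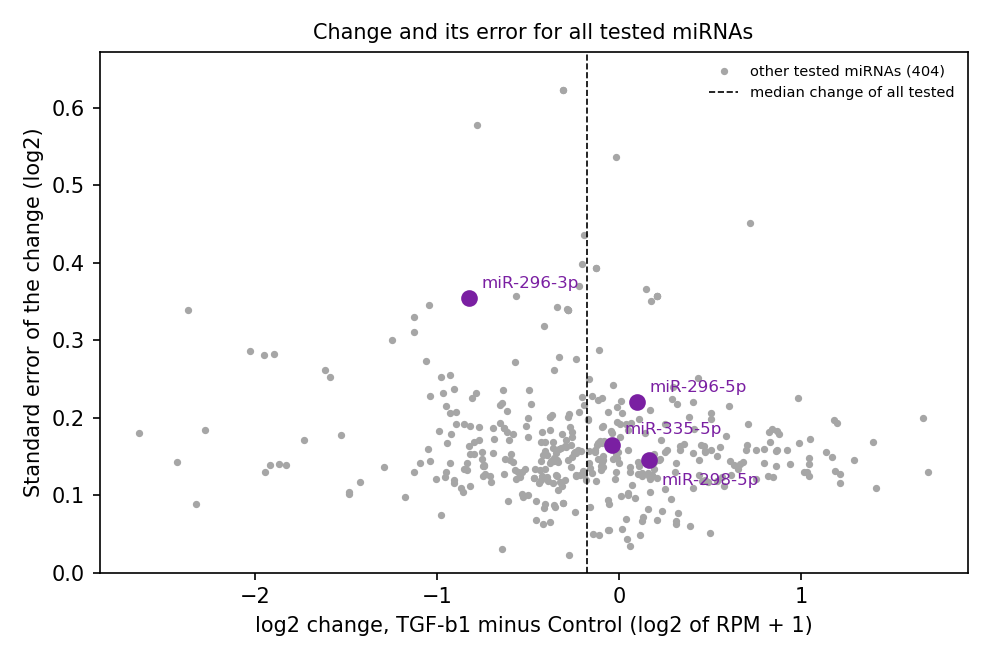
Log2 change (TGF-b1 minus Control, log2 of RPM + 1) against its standard error for the 408 tested miRNAs, with the 4 described here in purple and a dashed line at the median change of -0.17. MiR-296-3p has a larger error than 96.1% of the tested miRNAs, and the other 3 lie near a change of 0 at an error closer to the median of 0.152.

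MiR-296-5p, the arm known from work on blood vessel growth, was much scarcer. It had 5.34, 8.51 and 5.73 RPM in Control and 8.83, 5.36 and 7.02 RPM in TGF-b1, and the groups overlapped throughout. The means were 6.53 ± 1.73 and 7.07 ± 1.73 RPM (SD, n = 3 each). On the log2 scale the change was 0.10 ± 0.22 (SE), with a 95% interval from -0.41 to 0.61 and a limma adjusted p of 0.717. In RPM + 1 this interval ran from 0.754-fold to 1.53-fold, which understates the range of RPM itself. With a pseudocount of 0.1 the log2 interval was wider, from -0.46 to 0.69. The direction of the change was not stable, as the log2 change was -0.052 without TGF-b1 replicate 1 and -0.011 without Control replicate 1.

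The arms of miR-296 were then compared with each other, since they come from the same precursor. The 3p arm gave 87.9%, 84.6% and 89.8% of the miR-296 reads in Control and 84.5%, 76.8% and 72.2% in TGF-b1 replicates 1 to 3. Every TGF-b1 library was thus below every Control library, although replicate 1 was only just below. How often the arm shares of other hairpins separate the groups was not counted. In RPM, 56.9% of the 408 tested miRNAs had separate groups. The means were 87.4% ± 2.65 and 77.8% ± 6.26 (SD, n = 3 each). An exact permutation test, two-sided, gave p = 0.1, the lowest that 3 against 3 libraries allow, or 0.15 adjusted by Benjamini-Hochberg over 6 ratios and sums computed for these hairpins, of which 2 express this same arm ratio. Another of the 6, the 5p share of miR-335 reads, separated the groups at the same p on at most 1 read of its 3p arm per library (91.7%, 95.5% and 95.5% in Control, 100%, 95.8% and 100% in TGF-b1). In the limma fit over the 84 hairpins whose arms each averaged 1 RPM or more, where the arm ratio was called for 26.2% of hairpins at an adjusted p below 0.05, the log2 ratio of 5p to 3p was higher in TGF-b1 by 0.92 ± 0.30 (SE, limma adjusted p = 0.036), with a 95% interval from 0.29 to 1.56. The call was lost in 7 of 10 alternatives, among them a pseudocount of 0.1 (limma adjusted p = 0.0586) and leaving out Control replicate 1 or 3 or TGF-b1 replicate 2 or 3, over which the adjusted p was between 0.0713 and 0.153. It held, at 1.23 with a limma adjusted p of 0.0188, without TGF-b1 replicate 1. The direction was the same in all 10.

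A comparison with the neighbouring hairpin, chosen after the values were seen, set each miR-296 arm beside miR-298-5p of the same library. For each 100 reads of miR-298-5p there were 28.6, 27.0 and 34.9 reads of miR-296-3p in Control and 24.0, 11.6 and 11.7 in TGF-b1. TGF-b1 replicate 1, which lay within the Control range in RPM, was here below all Control libraries, where miR-298-5p, the denominator, had its highest value of the 6 libraries. How often ratios of other pairs of miRNAs separate the groups was not counted, while in RPM 56.9% of the tested miRNAs did. The means were 30.2 ± 4.19 and 15.7 ± 7.11 (SD, n = 3 each). The exact permutation test again gave its lowest value, 0.1, or 0.15 adjusted. For miR-296-5p the same ratio was 3.94, 4.93 and 3.96 in Control and 4.38, 3.49 and 4.52 in TGF-b1, with overlapping groups (exact permutation test, p = 0.9). The 3 rows of the Nespas hairpins together summed to 179.8, 227.9 and 201.2 RPM in Control and 258.7, 176.6 and 180.6 RPM in TGF-b1 (exact permutation test, p = 0.9). The ratios, unlike the summed RPM, do not depend on the scaling of the libraries.

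**Figure D3:**
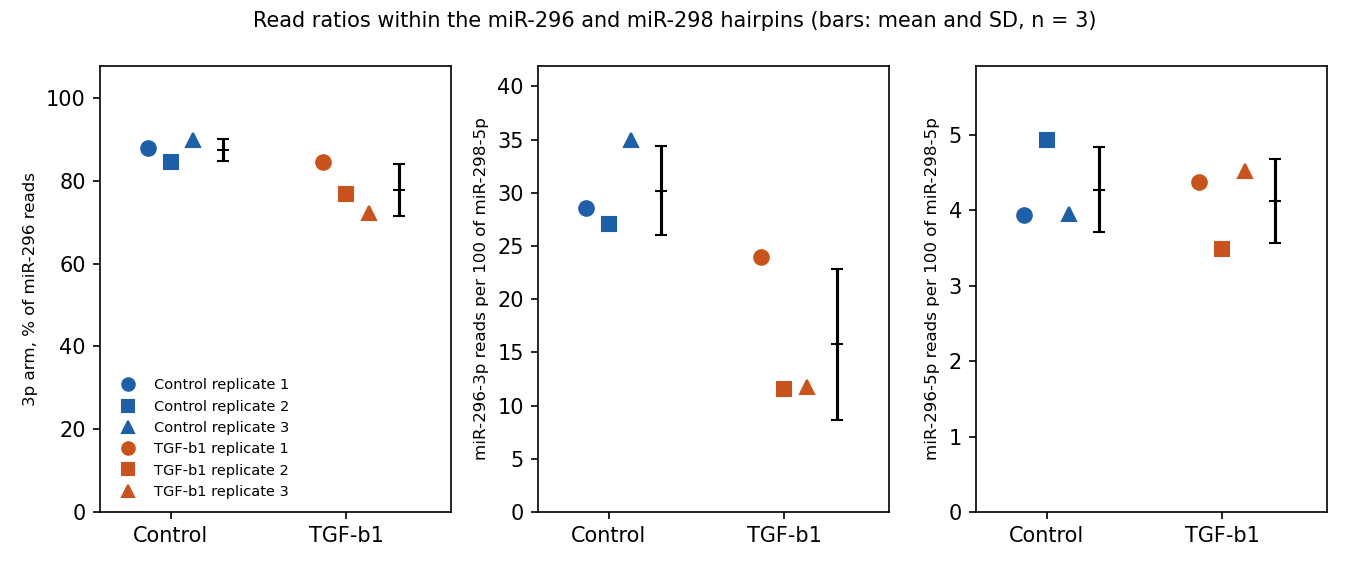
From left to right, the percent of miR-296 reads from the 3p arm, the reads of miR-296-3p per 100 reads of miR-298-5p and the reads of miR-296-5p per 100 reads of miR-298-5p, each for 3 Control and 3 TGF-b1 libraries with mean and SD. The TGF-b1 libraries lie below the Control libraries in the first 2 panels, with replicate 1 nearest to Control, and the groups overlap in the last.

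MiR-335-5p, known as a suppressor of breast cancer metastasis, was near 1 RPM. It had 0.668, 1.26 and 1.19 RPM in Control (11, 21 and 21 reads) and 0.843, 1.28 and 0.819 RPM in TGF-b1 (17, 23 and 14 reads), so the groups overlapped. The means were 1.04 ± 0.324 and 0.982 ± 0.262 RPM (SD, n = 3 each), and the log2 change was -0.036 ± 0.17 (SE, limma adjusted p = 0.871) with a 95% interval from -0.42 to 0.35. On the log2(RPM + 1) scale changes at this level are understated, and with a pseudocount of 0.1 the log2 change was -0.056 ± 0.31 (SE). The spread between libraries, with a coefficient of variation of 31.2% in Control and 26.6% in TGF-b1, was close to the 23.8% and 23.6% that counting alone would give. The sign was the opposite under TMM, median-of-ratios, upper-quartile and row-sum scaling. The other arm, miR-335-3p, had 1 read in each Control library and 0, 1 and 0 reads in TGF-b1, so both groups were at or under 3 reads in all and no change could be given.

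**Figure D4:**
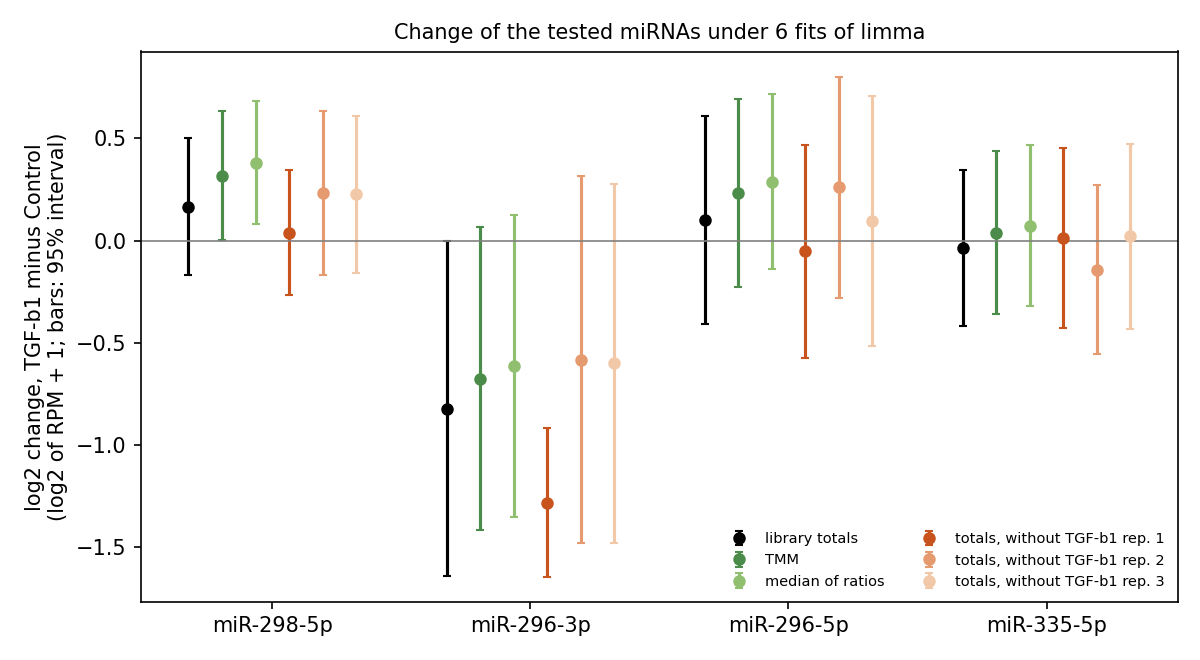
Log2 change (TGF-b1 minus Control, log2 of RPM + 1) of the 4 tested miRNAs with 95% intervals, under 6 fits with limma that differ in scaling or in the TGF-b1 library left out. The interval of miR-296-3p narrows and moves to -1.28 only without TGF-b1 replicate 1, and that of miR-298-5p lies above 0 with median-of-ratios and TMM scaling.

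MiR-483-5p of the Igf2 intron was at the limit of detection. It had 3, 3 and 2 reads in Control (0.182, 0.180 and 0.114 RPM) and 1, 1 and 0 reads in TGF-b1 (0.0496, 0.0558 and 0 RPM). All Control libraries lay above all TGF-b1 libraries, but the exact Poisson 95% interval of each overlapped those of the others. Summed over the groups there were 8 reads in 50783486 and 2 reads in 55170459, a ratio of 0.230 with an exact conditional 95% interval from 0.0238 to 1.15, which covers counting error only. Equal levels lay within that interval. It did not pass the filter on low reads, and when limma was run with no filter its adjusted p was 0.0389, on a log2(RPM + 1) scale where its change was -0.16.

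MiR-675-5p, the H19 product that limits placental growth and represses the receptor Igf1r, was hardly seen. It had 0, 0 and 1 reads in Control and 0 reads in each TGF-b1 library. Summed over the TGF-b1 group, the limit set for a count of 0, of 3 expected reads, was 0.0544 RPM. The single Control read was 0.0197 RPM of the group total, with an exact Poisson 95% interval from 0.000499 to 0.110 RPM. A change was therefore not detectable at this depth. An H19 transcript that is not cut into miR-675 would not be seen in these libraries.

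Other imprinted miRNAs were counted for comparison from lists of hairpins of their loci. Of the Dlk1-Dio3 cluster on chromosome 12, whose miRNAs are expressed from the maternal copy, 32 of 86 rows were tested, and 8 were called higher and 0 lower, with a median log2 change of 0.73. The list did not match the rows of miR-299, also of this cluster, so they are left out of all counts of it. Their log2 changes were 0.51 for miR-299-3p (limma adjusted p = 0.029) and 0.85 for miR-299-5p (limma adjusted p = 0.00115). Over all 408 tested miRNAs 18, or 4.41%, were called higher and 32, or 7.84%, lower. At any fold change 22 of the cluster rose and 0 fell, while over all tested miRNAs 71, or 17.4%, rose and 130, or 31.9%, fell. This split moved with the scaling, to 31 called higher and 22 lower with median-of-ratios, where 14 of the cluster were called higher and 0 lower, and to 24 or 25 higher and 24 lower with the other scalings. The called ones included miR-127-3p, which represses the imprinted gene Rtl1, at 27.9 RPM in Control and 57.3 in TGF-b1 (log2 change 1.02, limma adjusted p = 0.000682), and miR-433-3p, at 16.0 and 44.2 RPM (log2 change 1.41, limma adjusted p = 4.62e-05). The other 6 called were miR-485-5p, miR-379-5p, miR-543-3p, miR-434-3p, miR-495-3p and miR-487b-3p, with changes of log2(RPM + 1) of 1.04 to 1.22. At low levels this scale understates the change. MiR-487b-3p had means of 0.313 RPM in Control and 1.71 in TGF-b1, and miR-495-3p 1.13 and 3.39 RPM. Of the Sfmbt2 intron cluster, an imprinted rodent group of near-identical copies whose reads may be shared between rows, 31 of 73 rows were tested and 0 were called with the fold threshold, while 0 rose and 4 fell at any fold change, with a median of -0.30, beside -0.17 over all tested. With median-of-ratios or row-sum scaling 2 fell. Their values and those of the 4 miRNAs described above come from the same libraries and were not tested against each other.

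The miRNAs most alike to these in their pattern were sought among the other tested miRNAs, by the smallest root mean square difference of log2(RPM + 1), centred for each miRNA, over the 6 libraries. For miR-296-3p they were miR-101b-3p, miR-542-3p and miR-148b-3p, at differences of 0.265 to 0.281, where the median over all miRNAs was 0.627. In each of them TGF-b1 replicate 1 lay above replicates 2 and 3 but below all Control libraries, as with miR-101b-3p at 2240 to 2615 RPM in Control and 1849, 1069 and 1040 in TGF-b1. For miR-298-5p they were miR-219-1-3p, miR-582-3p and miR-1193-5p, at differences of 0.0590 to 0.120 (median over all miRNAs 0.346), and miR-219-1-3p had 8.68, 9.89 and 8.97 RPM in Control and 12.0, 9.55 and 9.48 RPM in TGF-b1. The likeness of the other ones rests on a scale that understates changes at their level. MiR-582-3p ranged from 0.546 to 0.995 RPM over the 6 libraries and miR-1193-5p from 0.789 to 1.93 RPM.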

How the data were processed

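Small RNA of 3 Control and 3 TGF-b1 libraries was sequenced on an Illumina instrument. The authors removed adaptors, contaminants, low-quality reads and reads under 18 nt, and aligned the rest to miRBase version 17 miRNAs with Bowtie. How reads matching several miRNAs were counted is not given in the sources used here. The deposited unit, named TPM by the authors, is RPM of the library total. Whole reads were recovered for 100% of values within 0.002 reads. Of 7 groups of identical rows (16 rows), 0 rows were among the miRNAs described.

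The members and lists were chosen with earlier results of these data known. Those named are all rows of the 5 hairpins, called list members and the 3 most alike to any member at 10 RPM or more. Other names were chosen after their values were seen. Rows with enough reads (filterByExpr of edgeR 4.0.16, minimum count 10) numbered 408. On these, log2(RPM + 1) was fitted against group with limma 3.58.1 (trended prior, R 4.3.3) and adjusted by Benjamini-Hochberg. Arm ratios were fitted likewise over hairpins. Since the deposited values are normalized, the count tests (edgeR, DESeq2 1.42.0) on the recovered reads were alternatives, beside other scalings, pseudocounts and filters, a replicate block and each library left out. The fits were also run on simulated data, with planted changes larger than any fitted here for the miRNAs described. Those runs cannot show how well changes of the size reported are found. For the arm ratios the simulated fit had no minimum level and a different trend, so it was not the fit reported. Permutation tests and intervals used scipy 1.17.1.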

Additional observations from a re-analysis of the deposited data

How the results depend on the processing

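Keeping 1 of each group of identical rows was chosen after seeing the data. With both thresholds 0 miRNAs were called, and 0 to 1 when each library was left out (miR-296-3p without TGF-b1 replicate 1, where 56 of all 408 were called). At any fold change 0 became 1 with median-of-ratios scaling (miR-298-5p), 1 with no filter (miR-483-5p), and 0 to 1 when each library was left out. The arm difference of miR-296, called once, was not called (0) with a pseudocount of 0.1 (0.96), no minimum level (0.92, limma adjusted p = 0.0584) or the replicate block (0.92, limma adjusted p = 0.0852), and lay between 0.69 and 1.23 with 0 to 1 calls when a library was dropped. MiR-296-5p lay between -0.052 and 0.28 when a library was dropped. MiR-335-5p reversed under TMM (0.039), median-of-ratios (0.074), upper-quartile (0.035) and row-sum scaling (0.032), to 0.063 with edgeR and TMM and 0.14 with DESeq2, and lay between -0.17 and 0.044 when a library was dropped. The ratio for miR-483-5p lay between 0.170 and 0.333 when a library was dropped. The call of miR-483-5p needed rows that the fit with no filter adds by construction. That of miR-296-3p needed TGF-b1 replicate 1 to be left out. The cause of these and the other shifts was not tested. Deviations of same-numbered libraries correlated at -0.084, -0.21 and -0.34, so no effect shared by same-numbered libraries was seen. Whether these libraries were paired by design is not given in the sources used here. The replicate block left 0 of the described miRNAs called, and 50 of all 408. The 50 calls among all tested miRNAs became 17 with a pseudocount of 10 and 86 with a pseudocount of 0.1 or edgeR, and 77 with DESeq2, and the 22 arm calls became 12 with a pseudocount of 0.1, 33 with 10, 48 with no minimum, 5 with the replicate block and 3 to 23 when each library was left out. At this depth the 3 scarcest miRNAs could not be compared.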
